A study of Mus musculus with 32 samples.

Results

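Immediate early genes are described here in single mouse eggs and 2-cell embryos with and without a deletion in Trp53, the gene of the stress-responsive transcription factor p53. The set holds Ier2, Ier3, Ier5, Fos, Fosb, Jun, Junb, Egr1, Atf3 and Myc, 10 genes taken by symbol from a table of 54532 genes, and all 10 were found in it. The 32 libraries were each made from 1 egg or 1 embryo. There were 3 WT metaphase II eggs and 3 eggs labelled Trp53 KO. The early 2-cell stage, collected 28 to 32 hours after hCG (the hormone that triggers ovulation), had 8 WT embryos and 6 embryos labelled Trp53 MZ-KO. The late 2-cell stage, at 48 hours, had 6 WT embryos and 6 labelled MZ-KO. The knockout allele lacks exons 2 to 10, which were flanked by lox sites and removed with Ddx4::Cre, a recombinase active in germ cells. MZ-KO embryos had a Trp53 KO mother and a Trp53 KO father, per the labels, whereas WT controls came from Trp53 flox/flox animals. The colony had a mixed Bl6/C57 background, and the embryos of both genotypes were cultured in KSOM medium. The labels give no ages and do not say how many females supplied a group. Spread, and so each p-value, is that between single eggs or embryos, some of which may be siblings.

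Immediate early genes are those a cell transcribes within minutes of a stimulus from factors already present, without new protein synthesis. Growth factor signals reach them through the MAP kinase cascade and the factors SRF, ELK and CREB, and many of their mRNAs carry AU-rich elements that make them short-lived. Many of the products are transcription factors. FOS, FOSB, JUN and JUNB pair into AP-1, EGR1 is a zinc finger factor, ATF3 is a stress-induced factor of the CREB family, and MYC pairs with MAX. In the mouse, eggs hold stored maternal mRNA, minor transcription starts in the zygote, and the main wave of zygotic genome activation comes in the late 2-cell embryo.

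Levels are FPKM, reads relative to gene length and library depth. Their low values were whole multiples of 1 read when the length was the genomic span, introns included, so FPKM understates genes with long introns. Atf3 is the extreme case, since its exons make up 4.51% of its span. Levels of different genes are therefore compared only after rescaling to exon length, and reads per library are given where they matter. Between 7210000 and 27600000 reads (median 18300000) stood behind the scale of a library. The targeted gene did not separate the genotypes at every stage. Trp53 was at FPKM 0.311 to 1.10 in early embryos labelled MZ-KO and 2.60 to 9.29 in WT, without overlap, but at 6.33 to 9.81 against 6.16 to 10.3 in eggs and 1.48 to 5.39 against 0.557 to 7.09 in late embryos. A value for the whole gene does not separate deleted from kept exons, and the knockout groups are called labelled for this reason. The summed FPKM of 10 oocyte genes was 2384 to 4204 in eggs and 48.6 to 151 in late embryos. None of 14 cumulus and granulosa cell markers had a mean of FPKM 1 in any group, and Ptx3 and Pgr were at 0 in all 32 libraries. WT early library 3 stood apart, with a median Spearman correlation of 0.808 with its group against 0.864 or more for the other 7.

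Most of the 10 genes were sparse in eggs and few were abundant anywhere. A median of 6 members had a read in a WT egg, 8.5 in a WT early embryo and 6.5 in a WT late embryo. The medians were 3, 7 and 7.5 in the groups labelled knockout. At FPKM 1 or more on exon length, the count of members was 1 to 3 in eggs, 1 to 7 in early embryos and 3 to 6 in late embryos. After rescaling to exon length, a different gene led in each WT stage. Junb led in WT eggs at a mean of 12.3 ± 0.755 (SD, n = 3), with Egr1 next at 1.72 ± 0.458. Egr1 led in WT early embryos at 4.23 ± 1.62 (n = 8), but Ier3 at 3.82 ± 6.35 and Atf3 at 2.95 ± 1.09 lay within its spread. Ier5 led in WT late embryos at 8.75 ± 8.85 (n = 6), and Ier2 at 7.50 ± 7.05 and Myc at 6.75 ± 4.71 did not differ from it beyond their spread. Ier3 led in late embryos labelled MZ-KO at 20.7 ± 5.64 (n = 6), above Myc at 9.26 ± 5.27.

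**Figure D1:**
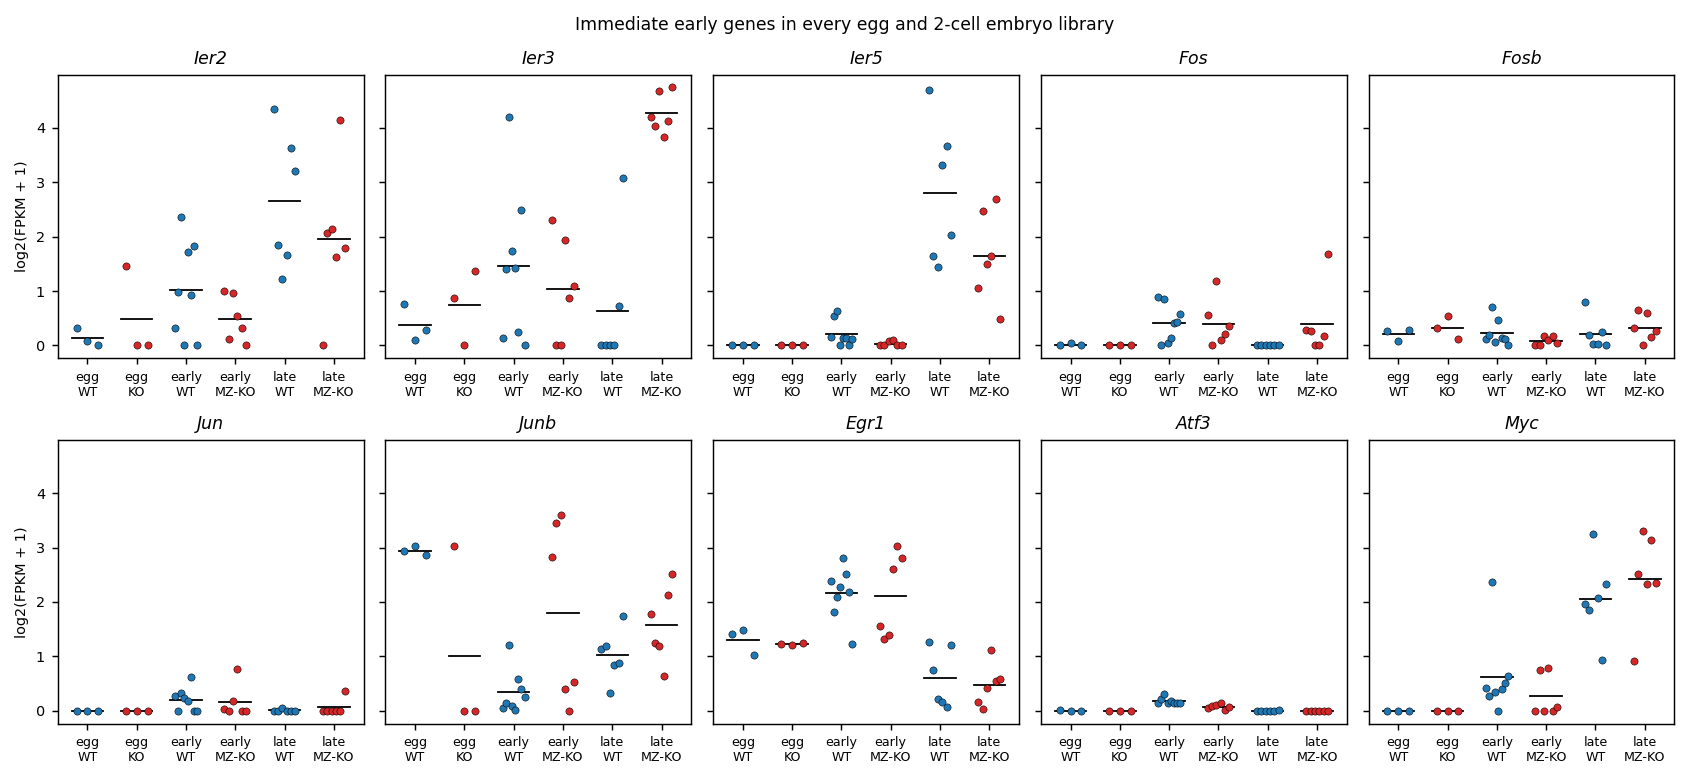
Each panel shows 1 gene, each point 1 library, and each line the group mean, on the log2(FPKM + 1) scale with span length. WT libraries are blue and labelled knockout libraries red, with 3, 3, 8, 6, 6 and 6 libraries from left to right. Ier3 is high in all 6 late embryos labelled MZ-KO. Ier2, Ier5 and Myc have their highest means of each genotype in late embryos. The mean FPKM of Ier5 there is 8.75 in WT and 2.56 in those labelled MZ-KO. Fos, Fosb, Jun and Atf3 lie low on this scale, which understates Atf3 because of its long introns.

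The members called by limma at an adjusted p below 0.05 are counted here beside the share of all tested genes that was called. A gene was tested where the libraries with FPKM 1 or above were no fewer than the size of the smaller group, so a member could pass through the group where it was high. By genotype, 0 of 2 tested members were called in eggs (1 at an unadjusted p below 0.05), where 0.333% of genes were. In early embryos 0 of 2 were called, at either kind of p, against 3.28% of genes. In late embryos 1 of 5, Ier3, was called, against 31.9% of genes (18.5% higher). Of those calls 58.0% were higher, or 40.4% with median-ratio scaling. From egg to early embryo, 2 of 4 members were called in WT against 51.3% of genes. The same step in the groups labelled knockout called 0 of 3, at either kind of p, against 49.2% of genes. From early to late, 4 of 5 were called in WT against 85% of genes, and 3 of 4 in the groups labelled MZ-KO against 81.7%. The genotype difference changed from early to late in 1 of 6 members, against 20.4% of genes, and from egg to early in 0 of 4 (1 at an unadjusted p below 0.05), against 0.351%. Groups without overlap were found in 15.5%, 1.72% and 13.7% of tested genes by genotype in eggs, early and late embryos. The shares were 41.6% and 64.9% for the WT steps and 45.1% and 65.8% for the steps labelled knockout.

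**Figure D2:**
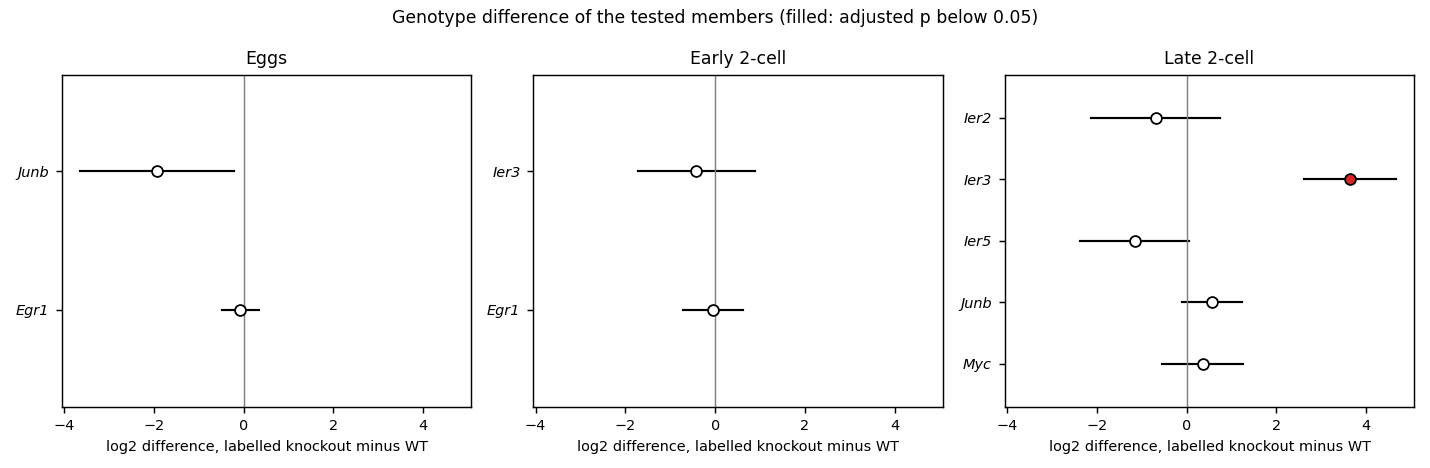
Points show the log2(FPKM + 1) difference of labelled knockout minus WT for each member tested at that stage, lines its 95% interval from limma, and filled points an adjusted p below 0.05. Ier3 in late embryos is filled, at 3.64, and of the other tested members Junb in eggs has an interval that leaves out 0.

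The Ier genes encode small nuclear or membrane-associated proteins outside the AP-1 family. Ier3, also called IEX-1, is known as a regulator of cell survival and a target of NF-kB and p53 in other cells. In late embryos it was higher in those labelled MZ-KO. Their values were FPKM 17.5, 15.4, 24.7, 13.3, 16.4 and 25.8, with 304 to 670 reads per library. WT late embryos had 0, 0, 0, 0, 0.647 and 7.41. All 6 values labelled MZ-KO lay above all 6 WT values, and a single WT embryo, library 6, held 168 of the 182 WT reads. The difference was 3.64 on the log2(FPKM + 1) scale (SE 0.47, 95% interval 2.62 to 4.66, adjusted p = 1.9e-04, limma with Benjamini-Hochberg adjustment over 8772 genes). With each library left out it ran from 3.51 to 4.13, and the 4.13 came without WT library 6, the highest WT embryo. Ier3 passed the limit for testing through the group labelled MZ-KO, since in WT only library 6 reached FPKM 1.

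At the early stage Ier3 did not separate the genotypes. WT early embryos ranged from 0 to 17.3 with a median of 1.67, and embryos labelled MZ-KO from 0 to 3.97 with a median of 0.988. The groups overlapped throughout, and the highest value was that of WT library 3. The early difference was -0.42 (95% interval -1.72 to 0.89, limma adjusted p = 0.745). The change in the genotype difference from the early to the late stage, tested as a contrast of 4 groups, was 4.06 (SE 0.82, limma adjusted p = 0.0011). In eggs, Ier3 was at 0.687, 0.073 and 0.217 in WT and at 0.837, 0 and 1.58 in those labelled KO. These values overlapped, and the gene fell under the limit for testing there.

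Along the stages, the Ier3 groups took different courses by genotype. From early to late embryos labelled MZ-KO it rose by 3.23 (SE 0.38, limma adjusted p = 2.1e-06), with no overlap. The late group sufficed for Ier3 to pass the limit for testing in that step. In WT the same step gave -0.82 (SE 0.65, limma adjusted p = 0.245), and 4 of 6 WT late embryos had no Ier3 read. Leaving out WT late library 6 took the WT step to -1.31 with a limma adjusted p of 0.0492. That fit takes out the WT late embryo with the highest Ier3 value and keeps those at or near 0. It is therefore no evidence of a fall in WT. The 3 genes whose centred log2(FPKM + 1) lay nearest to Ier3 over the 32 libraries, among 3851 genes, were Dkkl1, Rasl11a and Chrna10. Their root mean square differences were 0.90, 0.94 and 0.97, against a spread of 1.63 for Ier3 itself. Their mean FPKM was 6.98, 7.14 and 10.2 in late embryos labelled MZ-KO and 1.11, 0.523 and 0.476 in WT. They were picked for likeness to Ier3 over these same libraries, so their shared genotype direction is no separate result.

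Ier5, a regulator tied to the heat shock response and to phosphatase PP2A, was first seen in embryos. All 6 eggs had 0 reads, and the early embryos had at most FPKM 0.559. WT late embryos had 24.8, 2.14, 1.72, 8.97, 11.8 and 3.10. Late embryos labelled MZ-KO had 1.08, 4.56, 1.82, 2.12, 5.42 and 0.397. The 3 highest values were all WT, while the lower values overlapped. The rise in WT from early to late was 2.58 (SE 0.42, limma adjusted p = 2.9e-05), with no overlap between stages. For that step Ier5 passed the limit for testing through the late group alone. The late genotype difference was -1.16 (95% interval -2.38 to 0.05, limma adjusted p = 0.131), and it reached an adjusted p of 0.0132 in a single limma fit of all 32 libraries, in which 45.2% of genes were called. Hspa1a, which encodes an inducible HSP70 chaperone, had the pattern nearest to Ier5, with a root mean square difference of 0.48 against a spread of 1.25 for Ier5. Its mean FPKM was 13 in WT late embryos and 2.71 in those labelled MZ-KO. Tox4 and Rps6kb2 followed, both at a root mean square difference of 0.51. These genes were picked for likeness to Ier5 over the same libraries, so their shared genotype direction is no separate result.

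Ier2, a nuclear protein of the same early response, rose late in both genotypes. WT late embryos had FPKM 19.5, 2.57, 1.34, 2.15, 11.3 and 8.19, and those labelled MZ-KO had 0, 3.17, 3.43, 2.07, 16.6 and 2.44. The genotypes overlapped over nearly the whole range, and library 5 alone carried the high value in the group labelled MZ-KO. The rise from early to late was 1.63 in WT (SE 0.51, limma adjusted p = 0.0080) and 1.47 in the groups labelled MZ-KO (SE 0.50, limma adjusted p = 0.0144). In WT the late group sufficed for Ier2 to pass the limit for testing. In the groups labelled MZ-KO it passed through late embryos and early library 1, which was at FPKM 1. The late genotype difference was -0.69 (95% interval -2.12 to 0.74, limma adjusted p = 0.448). Nearest in pattern were Tmem170, Zbtb5 and Snhg17, at root mean square differences of 0.74, 0.75 and 0.76 against a spread of 1.23 for Ier2.

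The stretches of 250 bases before the RefSeq start of Ier3, Ier5, Fos and Atf3 (build GRCm38.p6, the same assembly as mm10) are shown as examples from the Ier, AP-1 and CREB family members, a choice made after their values were seen. Capitals mark matches, on either strand, to the TATA motif TATAA, to the CCAAT box, to the cyclic AMP response element (CRE) half-site TGACG or to the p53 half-site consensus.
Ier3: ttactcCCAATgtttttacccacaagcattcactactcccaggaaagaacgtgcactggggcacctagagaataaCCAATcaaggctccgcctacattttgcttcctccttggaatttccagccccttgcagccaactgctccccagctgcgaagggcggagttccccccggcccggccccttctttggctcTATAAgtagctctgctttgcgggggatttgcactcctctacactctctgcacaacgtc
Ier5: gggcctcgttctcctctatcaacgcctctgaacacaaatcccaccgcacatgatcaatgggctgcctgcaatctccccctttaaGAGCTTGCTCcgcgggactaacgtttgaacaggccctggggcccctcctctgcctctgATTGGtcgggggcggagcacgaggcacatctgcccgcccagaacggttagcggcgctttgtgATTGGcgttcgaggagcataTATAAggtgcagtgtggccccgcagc
Fos: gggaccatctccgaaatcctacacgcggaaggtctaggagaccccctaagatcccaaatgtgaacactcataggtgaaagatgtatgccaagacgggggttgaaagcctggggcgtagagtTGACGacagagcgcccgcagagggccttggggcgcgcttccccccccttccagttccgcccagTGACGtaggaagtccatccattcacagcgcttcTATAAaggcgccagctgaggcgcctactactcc
Atf3: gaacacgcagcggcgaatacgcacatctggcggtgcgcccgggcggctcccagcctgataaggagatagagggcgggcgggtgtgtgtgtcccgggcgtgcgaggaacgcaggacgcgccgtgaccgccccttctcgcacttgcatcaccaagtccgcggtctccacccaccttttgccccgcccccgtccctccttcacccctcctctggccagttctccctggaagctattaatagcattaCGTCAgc

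The windows lie at chr17:35821463-35821712 on the plus strand for Ier3, chr1:155099637-155099886 on the minus strand for Ier5, chr12:85473640-85473889 on the plus strand for Fos, and chr1:191183334-191183583 on the minus strand for Atf3. The Atf3 window lies inside the span that the annotation gives that gene, which reaches further upstream. RefSeq entries were matched by symbol for 7 of the 10 members. TATAA was found in Ier3, Ier5 and Fos, from 58, 26 and 33 bases before the start, and 22.8% of 32851 windows of this length hold it. CCAAT lay at 2 places each in Ier3 and Ier5 and once each in Jun and Junb, and 33.8% of all windows hold it. TGACG lay at 2 places in Fos, once in Fosb and Junb, and 7 bases before the start in Atf3, where 17.8% of all windows have it. The p53 half-site consensus matched Ier5 alone of the 7, beginning 166 bases upstream, against 7.13% of all windows. No window of the 7 held the full CRE TGACGTCA (in 1.55% of all windows), the AP-1 motif TGANTCA (6.75%), the EGR1 motif GCGTGGGCG (0.536%), the E-box CACGTG (6.02%) or a CArG box (1.47%). TGACG lies within TGACGTCA, and the 2 were counted separately. A match is a run of letters and no evidence of binding, and a lack of one covers these windows alone. Sequence further upstream was not searched, and Ier2, Egr1 and Myc had no entry. All 10 members are protein-coding genes, and in GENCODE M21 (mm10) the spans lie at chr17:35821684-35822923 for Ier3, chr1:155096361-155099636 for Ier5, chr8:84661331-84662852 for Ier2, chr8:84974484-84978718 for Junb and chr15:61985391-61990374 for Myc.

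Of the AP-1 genes, Junb was the 1 with a sizeable level, and it was the most abundant member in WT eggs. WT eggs had FPKM 6.66, 7.13 and 6.31. Eggs labelled KO had 7.20, 0 and 0, so library 1 was at the WT level and the other 2 had no read. WT early embryos ranged from 0.013 to 1.31 with a median of 0.150, all below the WT eggs. The difference in WT, early embryo minus egg, was -2.60 (SE 0.22, limma adjusted p = 3.6e-06). The WT eggs sufficed for Junb to pass the limit for testing there, and also in the egg genotype comparison. Early embryos labelled MZ-KO had 6.07, 9.89, 11.1, 0.322, 0 and 0.445. Libraries 2 and 3 of that group were above all WT eggs and library 1 was just below the lowest of them. Libraries 4 and 6 lay among the WT early embryos, and library 5 had no read.

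By test, the egg genotype difference was -1.93 (95% interval -3.64 to -0.22, limma adjusted p = 0.529), and without KO egg library 1 it was -2.94 with an adjusted p of 0.0027. In the early stage fewer than 6 libraries reached FPKM 1, so Junb was not tested there. The change in genotype difference from egg to early embryo was 3.39 (SE 1.04, limma adjusted p = 0.183), and without KO egg library 1 it was 4.40 with an adjusted p of 0.0415. Both fits without that library take out the only KO egg at the WT level and keep those at 0. Neither is therefore evidence of a genotype difference. From egg to early embryo in the groups labelled knockout the difference was 0.79 (SE 1.02, limma adjusted p = 0.544). Late embryos had 0.253 to 2.36 in WT (median 1.01) and 0.564 to 4.69 in those labelled MZ-KO (median 1.90). These ranges overlapped, with a difference of 0.56 (95% interval -0.11 to 1.24, limma adjusted p = 0.186).

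Junb shares 351 bases at its 3' end with Prdx2, a peroxiredoxin gene on the opposite strand, and these libraries do not mark strand. Prdx2 was at FPKM 57.6 to 123 in eggs, 129 to 219 in early embryos and 13.6 to 121 in late embryos. In the 6 early embryos labelled MZ-KO it lay between 129 and 158, a narrow range beside that of Junb. The share of Junb reads that come from Prdx2 transcripts was not tested. The genes nearest to Junb in pattern were Orc6, Dctn3 and Taf8, at root mean square differences of 0.95, 0.99 and 1.00 against a spread of 1.15 for Junb, which is not close.

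**Figure D3:**
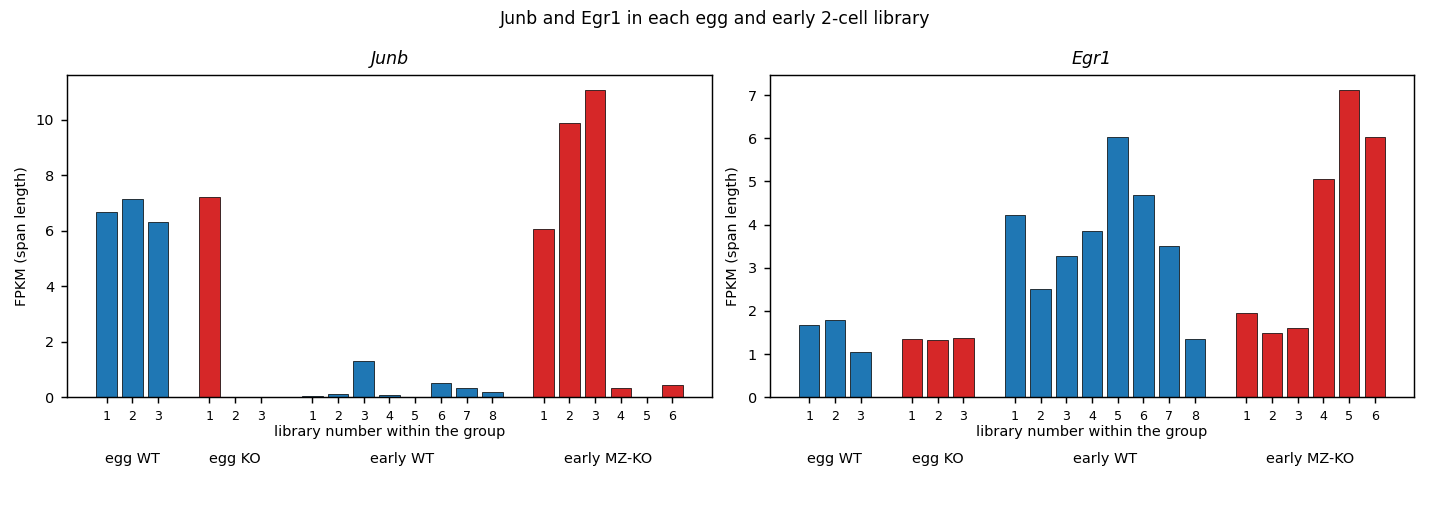
Bars show FPKM (span length) in each egg and early 2-cell library, numbered within its group in the order of the table, with WT in blue and labelled knockout in red. Junb is high in the 3 WT eggs, in 1 of 3 eggs labelled KO and in libraries 1 to 3 of the early embryos labelled MZ-KO, and in these 3 early libraries Egr1 lies at 1.94 or below.

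Egr1, a zinc finger factor induced by growth signals, was the 1 member present in every library. Eggs had FPKM 1.67, 1.78 and 1.04 in WT and 1.35, 1.32 and 1.36 in those labelled KO. WT early embryos ranged from 1.34 to 6.02 with a median of 3.68. Early embryos labelled MZ-KO had 1.94, 1.49, 1.62, 5.06, 7.12 and 6.04. Libraries 1 to 3, which were high in Junb, were the low ones here, and 7 of 8 WT early embryos lay above them. Late embryos of both genotypes had at most 1.41. Egr1 rose from WT egg to WT early embryo by 0.85 (SE 0.27, limma adjusted p = 0.0210), and this call was lost without WT egg library 1 (0.91, adjusted p = 0.0506) or 3 (0.72, adjusted p = 0.102).

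Egr1 then fell from early to late by 1.55 in WT (SE 0.25, limma adjusted p = 3.2e-05) and fell by 1.64 in the groups labelled MZ-KO (SE 0.32, limma adjusted p = 2.7e-04). In both steps the early group sufficed for Egr1 to pass the limit for testing. From the egg to the early embryo in the groups labelled knockout the difference was 0.89 (SE 0.41, limma adjusted p = 0.0954), with no overlap between the stages. The genotype difference was -0.08 in eggs (95% interval -0.48 to 0.33, limma adjusted p = 0.914) and -0.05 in early embryos (-0.71 to 0.62, limma adjusted p = 0.951).

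Fos, Fosb and Jun stayed low at all stages, and none reached the limit for testing in any comparison. Fos, the prototype of the class, had 0 reads in 5 of 6 eggs and 2 reads in the other. It appeared in 7 of 8 WT early embryos and 5 of 6 labelled MZ-KO, at up to FPKM 0.863 and 1.28. All 6 WT late embryos had 0 reads. Late embryos labelled MZ-KO had 0.222, 0.195, 0, 0, 0.129 and 2.19, so 4 of 6 had reads and library 6 held 80 of the 118.

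A group at 0 allows only a bound. With a floor of 3 fragments (6 reads, since reads came in pairs) over the WT late group, FPKM 0.0149, the mean of 0.457 in late embryos labelled MZ-KO was at least 30.6-fold higher. Without library 6 the mean was 0.109, at least 7.3-fold higher. The bound covers counting error alone. The authors' deposited table gives Fos a log2 fold change of -7.10 (SE 2.15, adjusted p = 0.00777) in a comparison whose values match WT over MZ-KO late embryos. In that table Ier5 had 1.92 (adjusted p = 0.0265) and Ier3 -3.67 (adjusted p = 0.104), so its calls among the members are Fos and Ier5, whereas limma on FPKM called Ier3. Across 10542 genes those fold changes correlated at 0.975 (Pearson) with the FPKM log ratio of the late groups, against 0.177 and 0.011 for the early and egg groups, which is how its groups were read.

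Fosb, a partner of JUN like FOS, had reads in all 6 eggs but no more than 60 in any, and its highest value was FPKM 0.738, in WT late library 1. Jun had 0 reads in all eggs and was listed above 0 in 5 of 8 WT early embryos, 3 of 6 early embryos labelled MZ-KO, and 1 late embryo of each genotype. Its highest value was 0.713. Jun overlaps the antisense gene Junos by 689 bases, which unstranded reads cannot separate. Junos held 14 to 139 reads in early embryos.

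Atf3, a CREB family factor induced by many stresses, was present in the early 2-cell stage and hardly outside it. WT early embryos had 78, 104, 230, 106, 110, 90, 94 and 38 reads, or FPKM 2.35, 3.55, 5.43, 2.37, 2.79, 2.39, 2.28 and 2.44 after rescaling to exon length. Early embryos labelled MZ-KO had 44, 42, 68, 86, 10 and 36 reads, or 0.909, 1.26, 1.62, 2.26, 0.310 and 0.975. On this scale all 8 WT values lay above all 6 labelled MZ-KO, although the nearest pair, 2.28 and 2.26, almost met. Groups failed to overlap in 1.35% of 14179 genes on the exon scale.

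With span length, Atf3 was at most FPKM 0.245 and was never tested. On exon length, a scale chosen after the data were seen, the early genotype difference was -0.85 (SE 0.21, limma adjusted p = 0.0489), where 2.37% of genes were called and 0.733% called lower. The call was lost with a pseudocount of 0.1 (-1.33, adjusted p = 0.058) and with span length and a minimum of 20 reads (adjusted p = 0.0842). Eggs had 6 Atf3 reads in WT library 1 and 0 in the other 5. Late embryos had 10 reads in WT library 6 and 0 in the other 11. The rise in WT from egg to early embryo was 1.88 on exon length (SE 0.23, limma adjusted p = 2.9e-05), and the fall from early to late in WT gave -1.89 (SE 0.17, limma adjusted p = 2.7e-08). On that scale 45.1% and 82% of genes were called in these WT steps. In these steps and in the early genotype comparison, WT early embryos sufficed for Atf3 to pass the limit for testing. Early embryos labelled MZ-KO had a mean at least 50.6-fold higher than the floor of the late ones, which had 0 reads. The small RNA gene Gm24748, inside the Atf3 span, was at 0 in all libraries.

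**Figure D4:**
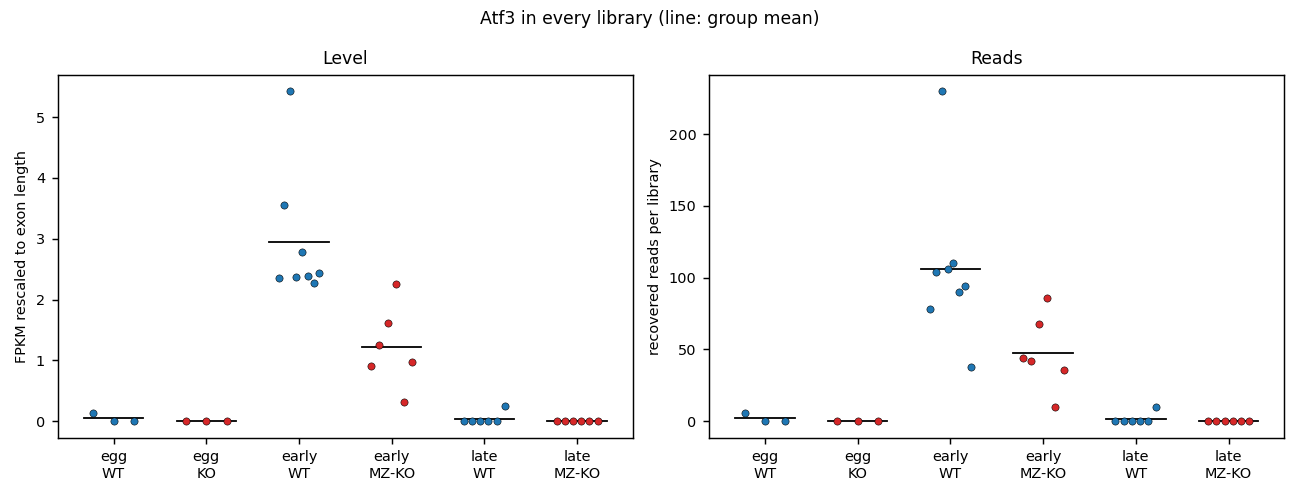
Points are single libraries and lines group means, with Atf3 as FPKM rescaled to exon length on the left and as recovered reads on the right, WT in blue and labelled knockout in red. The 8 WT early embryos lie at 2.28 to 5.43 and the 6 labelled MZ-KO at 0.310 to 2.26, while eggs and late embryos lie at or near 0.

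Myc, the growth-promoting partner of MAX, was a gene of the late 2-cell embryo. All 6 eggs had 0 reads. WT early embryos ranged from 0 to FPKM 4.14 with a median of 0.331, and the 4.14 was that of library 3, 7.45 times the next. Early embryos labelled MZ-KO had 0, 0.679, 0, 0.729, 0 and 0.047. WT late embryos had 2.88, 2.59, 8.49, 3.18, 0.920 and 4.01, and those labelled MZ-KO had 0.882, 4.71, 8.85, 4.03, 7.76 and 4.06. The late groups overlapped over nearly their whole range, with a difference of 0.36 (95% interval -0.55 to 1.26, limma adjusted p = 0.541). The rise from early to late was 1.44 in WT (SE 0.36, limma adjusted p = 0.0016). Of the WT early embryos only library 3 reached FPKM 1, so Myc passed the limit for testing mainly through the late group. In the groups labelled MZ-KO Myc passed that limit only on exon length or with a lower limit. The rise there was 2.72 on exon length (SE 0.41, limma adjusted p = 2.5e-05), where 77.7% of genes were called. The late group sufficed for Myc to pass the limit in that fit. The nearest patterns were those of AI464131, Chchd10 and Dpf2, at root mean square differences of 0.49, 0.50 and 0.56 against a spread of 1.12 for Myc.

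Other genes of the early response went both ways between genotypes in late embryos. Of 48 further immediate and delayed early genes, 25 were tested, 4 were higher and 6 lower in embryos labelled MZ-KO, where 18.5% of all tested genes were higher and 13.4% lower. Their median difference was -0.21, beside 0.07 for all tested genes. The 6 lower ones were Pim1, a survival kinase (FPKM 2.57 ± 1.41 against 13.5 ± 3.25 in WT, difference -2.09), Zfp36, which promotes decay of AU-rich mRNAs (-1.46), the antiproliferative gene Btg2 (-1.41), the growth arrest genes Gadd45a (-1.33) and Gadd45b (-0.83), and the phosphatase subunit Ppp1r15a (-0.94). Their limma adjusted p ran from 1.9e-04 for Pim1 to 0.0445 for Gadd45b. The 4 higher ones were the helix-loop-helix inhibitor Id3 (12.1 ± 6.59 against 1.74 ± 2.06, difference 2.39, limma adjusted p = 0.0016), the MAP kinase phosphatase Dusp2 (1.30), the AP-1 member Jund (1.01) and the factor Klf4 (0.94). With median-ratio scaling none of these 10 calls was lost, and the list of further early genes had 4 called higher and 7 lower. Btg2 and Gadd45a, which were lower, and Ier3, which was higher (3.64), are all known p53 targets in other cells. A part of p53 in these differences was not tested.

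**Figure D5:**
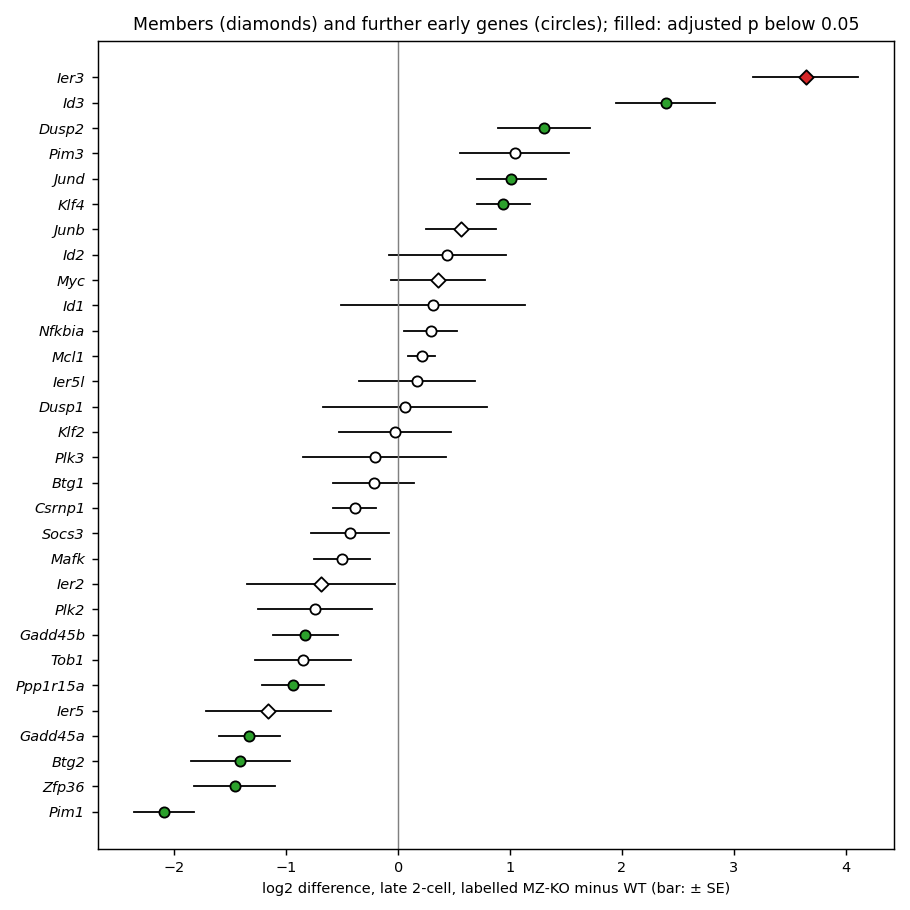
Points show the late 2-cell log2(FPKM + 1) difference, labelled MZ-KO minus WT, for the 5 tested members (diamonds) and 25 tested further early genes (circles), with bars of ± 1 SE and filled symbols for a limma adjusted p below 0.05. Ier3 has the highest value of the 30 at 3.64 and Pim1 the lowest at -2.09.

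Of 28 upstream kinases and factors of the pathway, 13 were tested in late embryos, and 5 were higher in those labelled MZ-KO and 0 lower (median 0.05). The share called in either direction was near that of all tested genes (31.9%). By direction, 18.5% of all tested genes were higher and 13.4% lower. Hras, a small GTPase at the head of the MAP kinase cascade, was at FPKM 26.2 ± 4.12 against 8.24 ± 3.19 in WT (1.62, limma adjusted p = 2.8e-04). The CREB family factor Atf1 (0.89), the SRF partner Elk4 (0.56) and Mapk8, which encodes the JUN kinase JNK1 (0.41), were also higher. With median-ratio scaling the list had 4 genes higher and 1 lower. Of 22 dimer partners and family members, 7 were tested, and Ddit3 (-1.88), Atf4 (-0.86) and Atf2 (-0.44) were lower while Mxd3 (0.70) was higher, with a median of -0.16. Ddit3 and Atf4 encode transcription factors induced by stress, and the Mxd3 call was lost with median-ratio scaling. Of 8 factors that bind AU-rich elements, 5 were tested, and Zfp36l2 (1.71) and Elavl1 (0.50) were higher, the second not with median-ratio scaling. None of these 4 lists had a gene called by limma between the genotypes in eggs or early embryos, with 33 and 36 genes tested. The shares of all tested genes called there were 0.333% and 3.28%. At an unadjusted p below 0.05 there were 3 in eggs, all from the further early genes, beside 577 of all 6607 tested genes. In early embryos there were 5, beside 1635 of all 7675 tested genes.

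From WT early to late embryos, 14 of 23 further early genes tested were higher and 3 lower, where 46.6% of all tested genes were higher and 38.4% lower. They had a median difference of 1.81 beside 0.26 for all tested genes. The 6 with the greatest rise were Gadd45b (4.10), Btg1 (3.81), the survival gene Mcl1 (3.70), Gadd45a (3.47), the signalling inhibitor Socs3 (3.23) and Pim1 (2.99). The 3 lower were Dusp1 (-2.24), which dephosphorylates MAP kinases, the NF-kB inhibitor Nfkbia (-1.21) and Gadd45g (-1.10). In the groups labelled MZ-KO, 14 of 23 were higher and 3 lower, against 48.3% and 33.3% of all tested genes, with a median of 1.33 beside 0.39. Of 15 upstream genes tested in WT, 7 were lower and 4 higher, led by the ERK1 gene Mapk3 (-3.10). From WT egg to WT early embryo, 4 further early genes were higher and 3 lower of 20, against 30.4% and 20.9% of all tested genes, among them Gadd45b (2.20) and Id2 (1.94) above and Btg1 (-1.97) and Nfkbia (-1.96) below. Upstream genes in that step had 7 higher and 1 lower of 13, led by Mapk3 (2.23), Srf (1.66) and Hras (1.59).

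Some marker sums differed by genotype in late embryos beside Ier3, and those of the 2-cell embryo and of sperm overlapped between genotypes. The oocyte sum had medians of 71.8 in WT and 73.4 in those labelled MZ-KO, and the cumulus and granulosa sum 0.77 and 0.639. The summed FPKM of 9 blood and immune markers was 6.71 to 14.5 in WT and 14.8 to 78.0 in those labelled MZ-KO. The alpha globin gene Hba-a1 made up most of it, at 4.71 to 12.4 and 14.6 to 73.5, whereas Hbb-bt, Ptprc and Cd3e were at 0 in all 12 embryos. The sum of 10 markers of the 2-cell embryo ranged from 91.8 to 331 in WT and from 69.3 to 156 in those labelled MZ-KO. Tdpoz4 was the largest part of it, at 55.3 to 203 in WT and 15.1 to 116 in those labelled MZ-KO. Of these 10 markers, 6 were called lower and 1 higher, against 13.4% and 18.5% of all tested genes. Tcstv1 went the other way from the sum, at 0.621 to 4.45 in WT and 3.34 to 13.2 in those labelled MZ-KO. The sum of 6 sperm markers ranged from 10.1 to 28.7 in WT and from 7.6 to 13.5 in those labelled MZ-KO, and the 1 of them tested was called lower (-0.70). Their part in the Ier3 difference was not tested. Bulk values of a whole embryo do not tell a change in 1 cell from a change in both.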

How the data were processed

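RNA was measured in 32 libraries, 1 per egg or embryo, made with the SMRT-seq v4 kit, 15 PCR cycles and Tn5 tagmentation, per the labels' protocols. The authors' deposited table gives FPKM per gene and library. It also gives the authors' own log2 fold change and its adjusted p-value, for groups its header does not name. TopHat2, DESeq, DESeq2 and build mm10 are named in the submitters' processing notes, and their versions are not given in the sources used here. The design text states 6 early replicates, and the WT early group has 8.

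Low FPKM values in genes spanning up to 2000 bp were whole multiples of 1 read, within 0.1 read, for at least 99.3% of values per library with span length and at most 34% with exon length (GENCODE M21). Of 205 positive member values with enough digits, all 205 were whole within 0.1 read and 189 were even numbers. Gene identifiers were found in the annotation for 54409 of 54532 genes, and 27 symbols turned into dates were restored. Libraries of a group correlated at most at 0.931 (Spearman), and none was taken for a copy of another. Column names carry no replicate number, so libraries are numbered in column order.

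log2(FPKM + 1) was fitted with limma 3.58.1 in R 4.3.3 (intensity trend, robust moderation with statmod 1.5.0), on the groups compared, keeping genes whose libraries at FPKM 1 or above numbered no fewer than the smaller group, with Benjamini-Hochberg adjustment over all genes tested. The pseudocount of 1 understates changes of low genes. The fit was tested on simulated data. Alternatives were a pseudocount of 0.1, no filter, minima of FPKM 5 or 20 reads, median-ratio scaling, all 32 libraries in 1 fit, each library left out, and, added after seeing the data, FPKM rescaled to exon length alone or with the pseudocount of 0.1. Tables used Python 3.11.15 and pandas 2.3.3.

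All 10 members are named. From each related list, at most 6 called genes per direction with the greatest change are named. The values of 1 list gene are not reported here. Similar genes are the 3 with the lowest root mean square difference over 32 libraries, for members with a group mean of FPKM 5. The members and lists were chosen with earlier results of these data known. Fold bounds use a floor of 3 fragments (6 reads) over a group, and floors cover counting error only.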

Additional observations from a re-analysis of the deposited data

Results flagged for a closer look

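Single libraries stood far from the rest of their group, by the size of the gap to the next value relative to the range of the group, in 14 of 38 member groups of 6 or 8 libraries. Chance flags about 1 in 20 groups of well-behaved values, and these sparse values are skewed. WT early library 3 was such a library in 4 genes, at FPKM 17.3 for Ier3, 4.14 for Myc, 1.31 for Junb and 0.245 for Atf3. WT early library 6 stood out in Jun at 0.541. Among early embryos labelled MZ-KO, library 3 stood out in Fos at 1.28 and library 4 in Jun at 0.713.

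In WT late embryos, library 6 stood out in Ier3 at 7.41 and in Atf3 at 0.011, library 1 in Fosb at 0.738 and library 3 in Jun at 0.032. In late embryos labelled MZ-KO, library 5 stood out in Ier2 at 16.6, and library 6 in Fos at 2.19 and in Jun at 0.291. The Jun and Atf3 values of WT late embryos rest on 2 and 10 reads. The genotype difference of Ier3 changed between the early and the late stage by 4.06 in the limma contrast of the 4 groups.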

How the results depend on the processing

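No paired analysis was possible because the columns carry no replicate numbers. For the tested members, 249 values under other settings kept their direction and side of the threshold, 2 changed sign, 2 gained a call (Ier5 by genotype in late embryos, and Egr1 from egg to early labelled knockout, both in 1 fit of all libraries) and 1 lost it. The count of members called moved as follows, with the share of all tested genes called under the other setting in brackets. A changed filter or length also changes which members are tested, so counts need not cover the same members. In late embryos by genotype it was 2 in 1 fit of all libraries (45.2%), against 1. In early embryos it was 1 on exon length (2.37%), against 0. From WT egg to early it was 1 at FPKM 5 (59.1%), against 2. Without a filter Egr1 missed there (limma adjusted p = 0.0751), with 14.8% of genes called. From WT early to late it was 7 without a filter (44.6%), against 4. From egg to early labelled knockout it was 1 with 20 reads (33.2%) and 1 in 1 fit of all libraries (48.1%), against 0. It was also 1 there on exon length with either pseudocount (41.2% with 1 and 41.9% with 0.1). From early to late labelled MZ-KO it was 6 without a filter (40.9%) and 1 at FPKM 5 (86.6%), against 3. For the change of the genotype difference from early to late it was 2 with 20 reads (15.4%), against 1. On exon length it was also 2 (15.3%). No member passed FPKM 5 in the early genotype and the WT early to late comparisons. Junb in the step from early to late labelled MZ-KO turned from -0.22 to 0.30 with a pseudocount of 0.1 and to 0.46 on exon length with it.

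With each library left out, counts ran from 0 to 1 in eggs and for the change of the genotype difference from egg to early. Both counts of 1 came without KO egg library 1, which leaves only KO eggs with no Junb read. The count was 1 to 2 for WT egg to early and 3 to 5 for WT early to late. From early to late labelled MZ-KO it was 3 to 5, where leaving out an early library lowers the number the filter requires. Signs turned in values near 0, with ranges of -0.23 to 0.11 (Egr1, early genotype), -0.22 to 0.01 (Egr1, eggs), -0.15 to 0.19 and -0.24 to 0.10 (Egr1, changes of the genotype difference from egg to early and early to late), -0.60 to 0.23 (Ier2, early to late), -0.09 to 0.60 (Ier3, egg to early labelled knockout) and -0.58 to 0.14 (Junb, early to late labelled MZ-KO). Ier3 in late embryos ran from 3.51 to 4.13. Median-ratio scaling moved the median of all tested genes by over 0.1 in several comparisons (from 0.07 to -0.07 in late genotype, from 0.39 to 0.11 in early to late labelled MZ-KO), and the share of calls that were higher from 59.3% to 48.3% (WT egg to early), 59.3% to 48.8% (egg to early labelled knockout) and 58.9% to 33.9% (change from early to late). The causes of these shifts were not tested. Depth limits Fos, Fosb, Jun and Atf3, with at most 230 reads in a library.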
